A study of Mus musculus with 27 samples.

Results

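The transcripts of 6 subunits of the NMDA receptor were followed in the cortex of 5xFAD mice after injection of the retromer stabilizers R33 and R55. The members were the rows of the deposited table, which lists symbols in lower case, named grin1, grin2a, grin2b, grin2c, grin2d and grin3a, 6 of 26264 genes, and all 6 passed the filter on low values, a mean of at least 1 FPKM, as did 12976 genes in all. FPKM are counted fragments per kilobase of gene, scaled to the size of the library. Levels can thus be set side by side between genes, although any bias along the transcript weighs on long ones. Grin3b, which encodes the remaining GluN3 subunit, was not among the members and had a median of 0.291 FPKM.

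NMDA receptors are glutamate-gated ion channels that let calcium into the postsynaptic neuron when glutamate is bound and the membrane is depolarized, and they are known for their role in synaptic plasticity. Each receptor holds the obligatory GluN1 subunit, encoded by Grin1, which binds glycine or D-serine, together with GluN2 subunits, encoded by Grin2a to Grin2d, which bind glutamate, or GluN3 subunits. GluN2A and GluN2B prevail in the adult forebrain, GluN2C is best known from cerebellar granule cells and astrocytes, GluN2D from interneurons and early development, and GluN3A from the young brain, where it lowers calcium permeability.

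All mice were 16-week-old female 5xFAD/C57BL6 animals. The 5xFAD line carries human transgenes that cause amyloid pathology, under the neuronal Thy1 promoter, so the vehicle controls carry them as well, and no wild-type library was used. Vehicle (saline with DMSO and a cyclodextrin, 0 mM drug), R33 or R55 (each 10 mM) was microinjected into the parietal cortex of 1 hemisphere, and cortex blocks were taken 24 h later from that hemisphere and from the contralateral, uninjected one for stranded mRNA sequencing. The 27 libraries came from 4 vehicle mice (J, L, M and AH), 5 R33 mice (K, N, O, AD and AE) and 5 R55 mice (P, Q, R, AA and AB), and 13 of the 14 mice gave both hemispheres, AE giving the injected one only.

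Between 15932196 and 38077026 fragments per library fell on genes. For the members, median fragments per library ran from 442 fragments for Grin2d to 11460 for Grin2b. The injected library of R33 mouse AD stood apart, with a median correlation of 0.9582 with the other libraries against at least 0.973 for each of the rest. The excitatory neuron marker Slc17a7 was abundant in every library (312 to 708 FPKM). The summed level of 6 striatal markers ranged from 35.7 to 281 FPKM. It was highest in the injected libraries of R33 mouse N and vehicle mouse L (191 FPKM), the rest lying at 96.3 FPKM or below. For 6 thalamic and cerebellar markers the sum ranged from 17.3 to 103 FPKM. That sum was highest in the injected libraries of vehicle mouse J and R55 mouse P (101 FPKM), the rest lying at 57 FPKM or below. In tissue blocks, fewer cells of a type and less RNA per cell cannot be told apart.

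The obligatory subunit was by far the most abundant. Grin1 averaged 91.2 FPKM ± 12.9 (SD, n = 27 libraries), followed by Grin2b at 17.8 ± 5.49, Grin2a at 11.9 ± 3.12, Grin2c at 10.4 ± 2.07, Grin3a at 5.05 ± 1.58 and Grin2d at 3.79 ± 0.579. Grin1 exceeded Grin2b in 27 of 27 libraries, Grin2b exceeded Grin2a in 26 and Grin2c exceeded Grin3a in 27. The order of Grin2a and Grin2c was less fixed, with Grin2a higher in 18 of 27 libraries, and Grin3a exceeded Grin2d in 24. The only library in which Grin2b lay below Grin2a was the injected one of R33 mouse AD, at 5.7 and 6.17 FPKM.

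**Figure D1:**
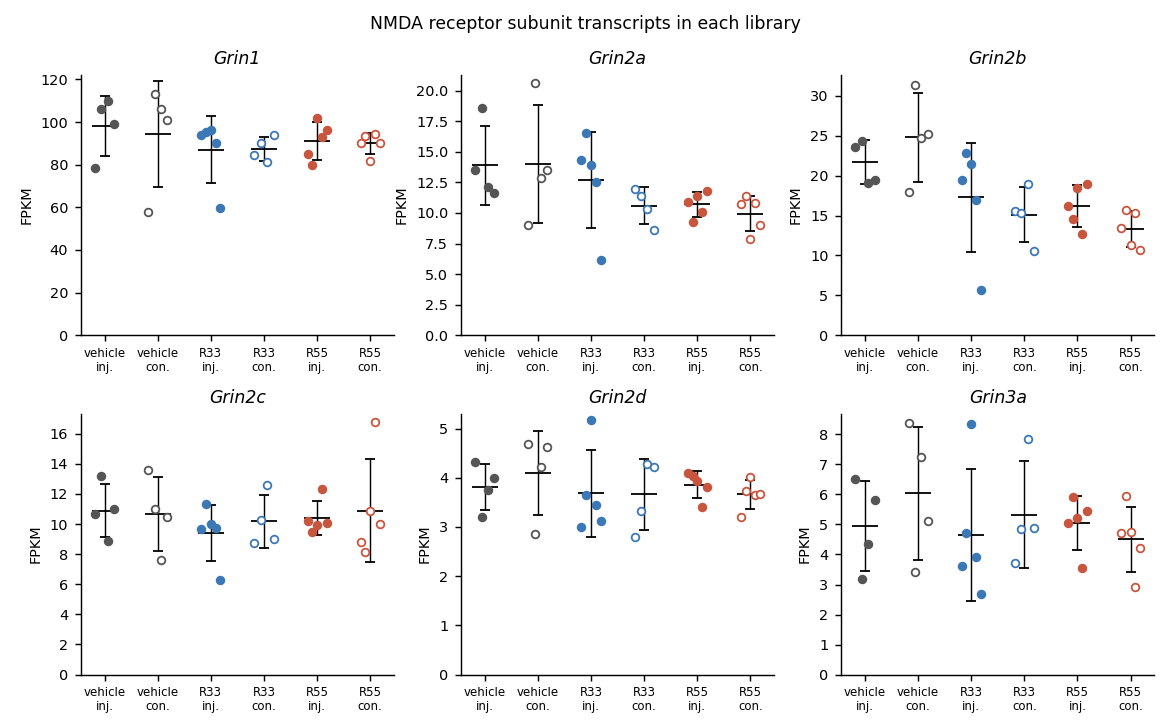
FPKM of the 6 NMDA receptor subunit transcripts (vertical axes, from 0) in each library, by treatment and hemisphere (inj., injected, filled; con., contralateral, open), with the group mean and SD as black bars. Grin2b libraries of R55 mice lie at 10.7 to 19 FPKM, below the vehicle libraries of the same hemisphere, while the groups overlap for Grin1, Grin2a, Grin2c, Grin2d and Grin3a.

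The members differ in structure as well as in level. Grin2b occupies chr6:135690231-136150548 on the minus strand of GRCm39, and its canonical transcript of 14 exons and 24238 bases is 77.8% 3′ untranslated region. Grin2a lies at chr16:9385762-9813424, minus strand, with 13 exons and a 3′ untranslated region of 66.8% of the transcript. Grin1 (chr2:25181186-25209226, minus strand, 20 exons) has a compact transcript of 4318 bases, of which 28.7% is 3′ untranslated region. The gene overlaps Grin1os on the opposite strand. Whether the counting used strand is not given in the sources used here, and Grin1os was listed at 0.317 to 1.36 FPKM against 58 to 113 for Grin1. Grin2c (chr11:115139992-115158525), Grin2d (chr7:45481304-45527802) and Grin3a (chr4:49661611-49845847) are also on the minus strand, and Grin3a shares its locus with Ppp3r2 on the same strand. The gene lengths behind the FPKM were 24123 bp for Grin2b, 15520 bp for Grin2a, 7711 bp for Grin3a and 4372 to 4895 bp for the other members.

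The first comparison asked how R55 altered the cortex relative to vehicle. None of the 6 subunits passed the threshold in the limma fit over both hemispheres (adjusted p under 0.05, which 0.00771% of all tested genes passed). The 2 principal forebrain GluN2 transcripts nevertheless had lower values in R55 mice: Grin2b averaged 14.7 FPKM ± 0.432 (SD, n = 5 mice) against 23.2 ± 3.18 in vehicle (n = 4 mice), and Grin2a averaged 10.3 ± 0.425 against 14 ± 3.82. For every subunit except Grin2b, and thus also for Grin2a, the means differed by less than the SD over the vehicle mice. The R55 mice varied less than the means differed for Grin2a, Grin1 (90.6 ± 3.36 FPKM in R55 against 96.3 ± 19.3 in vehicle) and Grin2d (3.76 ± 0.182 against 3.95 ± 0.651).

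In the injected hemisphere, Grin2b was measured at 23.6, 19.1, 24.4 and 19.5 FPKM in vehicle mice J, L, M and AH, and at 16.2, 18.5, 12.7, 14.6 and 19 FPKM in R55 mice P, Q, R, AA and AB. In the contralateral hemisphere, the same vehicle mice gave 17.9, 24.7, 31.4 and 25.2 FPKM, and the R55 mice 13.5, 11.3, 15.3, 15.7 and 10.7 FPKM. Within each hemisphere every R55 library lay below every vehicle library, although in the injected hemisphere the highest R55 value (mouse AB) and the lowest vehicle value (mouse L) nearly touched. That library of mouse L was the one with the second highest striatal marker level, and without mouse L the log2 fold change on the injected side was −0.458, against −0.403 with it. Among all tested genes, 0.578% of genes on the injected and 1.36% on the contralateral side were separated downward in this way. Averaged over hemispheres, 5 of 5 R55 mice (14 to 15.1 FPKM) lay below every vehicle mouse (20.8 to 27.9 FPKM), a separation that 1.41% of all tested genes had in this direction. The R55 libraries spread more widely within a hemisphere than these means, with an SD of 2.63 FPKM (injected) and 2.27 FPKM (contralateral).

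The fitted log2 fold change of Grin2b was −0.62 (SE 0.177, 95% confidence interval −0.99 to −0.26), which is a 35.1% lower value of FPKM + 1. The unadjusted p in limma was 0.00161 and the adjusted p 0.327. Counting each mouse once, the difference was −0.62 and the exact two-sided permutation p was 0.0159, the smallest that 5 against 4 mice allow. This was 1 of 18 such tests (6 subunits, 3 treatment contrasts) and was not adjusted for their number. Within the mice with a single-letter label the difference was −0.65 (3 against 3 mice, exact permutation p = 0.1, the smallest possible), and among those with a 2-letter label it was −0.56 (2 against 1 mouse, not testable).

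The call on Grin2b turned on which R33 libraries shared the estimate of spread, while the log2 fold change stayed at −0.623. With R55 and vehicle libraries alone, Grin2b fell at an adjusted limma p of 0.0469, 1 of 12 genes so called. Leaving out mouse AD, whose Grin2b values were the lowest measured, gave an adjusted p of 0.00882 (50 genes called), and leaving out its injected library alone gave 0.0293 (19 genes called). In these fits the libraries of a mouse entered as separate samples. The mouse as a replicate block was fitted only over all 27 libraries, where the SE was 0.210 and the adjusted p 0.9.

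Grin2a ran lower with a less even separation. In the injected hemisphere, vehicle mice J, L, M and AH gave 13.5, 12.1, 18.6 and 11.6 FPKM, and R55 mice P, Q, R, AA and AB gave 10.9, 11.4, 10.1, 9.27 and 11.8 FPKM. The contralateral values were 9.01, 12.9, 20.6 and 13.5 FPKM in vehicle and 10.7, 7.88, 10.8, 11.4 and 8.98 FPKM in R55 mice. The groups overlapped within each hemisphere. On the injected side vehicle mouse AH (11.6 FPKM) lay below R55 mouse AB (11.8 FPKM), and on the contralateral side vehicle mouse J was low (9.01 FPKM). The means over hemispheres narrowly did not overlap (9.63 to 10.8 FPKM in R55 mice, 11.2 to 19.6 in vehicle). Such a separation in this direction was seen in 1.41% of all tested genes. The log2 fold change was −0.37 (SE 0.141, unadjusted p = 0.0132, adjusted p = 0.552 in limma), and the exact permutation p over mice was again 0.0159. Vehicle mouse M carried much of this difference: without it, the log2 fold change was −0.21 (adjusted p = 0.878). For Grin2b the value without mouse M was −0.535.

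Grin1 was measured at 78.2 to 110 FPKM on the injected and 58 to 113 FPKM on the contralateral side of vehicle mice, where both lowest values came from mouse J. In R55 mice it was 79.8 to 102 and 81.9 to 94.4 FPKM, inside the vehicle ranges. The log2 fold change of R55 against vehicle was −0.06 (95% confidence interval −0.28 to 0.15, adjusted p = 0.844). Grin2c, at 8.79 to 14.6 FPKM in the R55 mice and 8.25 to 12.2 FPKM in the vehicle mice, had a log2 fold change of −0.02 (interval −0.27 to 0.22). Grin2d gave −0.05 (−0.22 to 0.12) and Grin3a −0.14 (−0.49 to 0.21). The 12 permutation tests of these 4 subunits, over all 3 treatment contrasts, gave exact p from 0.444 to 0.976.

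Over the 6 subunits the median log2 fold change was −0.10, with 6 of 6 below 0 and 2 of 6 at an unadjusted p under 0.05. Over all tested genes the median was 0.026, 39.8% of genes were below 0 and 8.45% had an unadjusted p under 0.05. A second fit, limma voom on the recovered fragments, called 0 of 6 members and 1 gene in all, and gave Grin2b an adjusted p of 0.356.

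**Figure D2:**
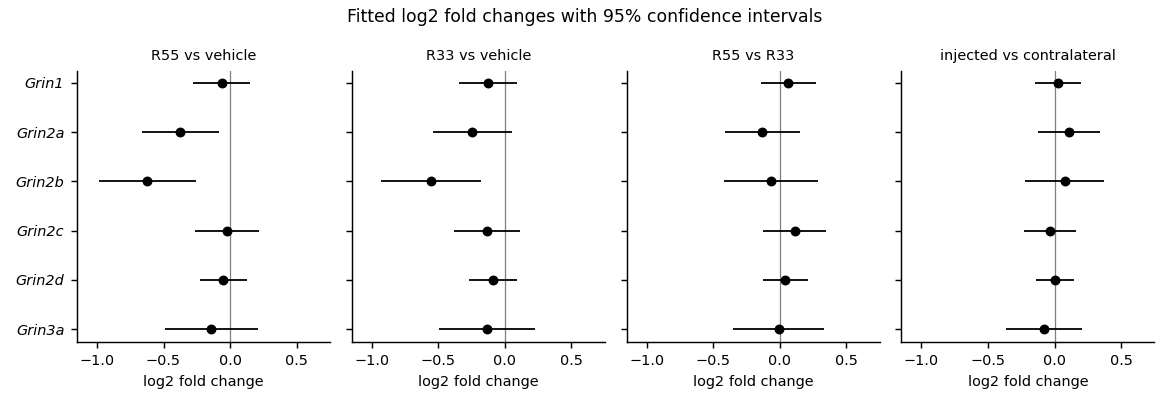
Fitted log2 fold changes on the scale of FPKM + 1 (horizontal axes) with 95% confidence intervals (lines) for the 6 subunits in the 4 comparisons over all 27 libraries. Intervals for Grin2b lie below 0 for R55 and for R33 against vehicle and that of Grin2a for R55 only, and no adjusted p was under 0.05.

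R33, tested against the same vehicle mice, gave a similar list of values with a wider spread. None of the 6 subunits passed the threshold (0% of all tested genes did), 6 of 6 log2 fold changes were below 0 and their median was −0.13 (0.018 over all genes). Grin2b had the largest difference, at 17 FPKM ± 5.36 (SD, n = 5 mice) against 23.2 in vehicle.

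Grin2b in the injected hemisphere of R33 mice K, N, O, AD and AE was 19.4, 17, 21.5, 5.7 and 22.8 FPKM, and in the contralateral hemisphere of K, N, O and AD it was 15.6, 18.9, 15.3 and 10.6 FPKM. Mouse AD was lowest on both sides. Mice K, O and AE lay within the vehicle range on the injected side (19.1 to 24.4 FPKM), and mouse N on the contralateral side (17.9 to 31.4 FPKM). The log2 fold change was −0.55 (SE 0.182, unadjusted p = 0.00514, adjusted p = 0.834 in limma), and without mouse AD it was −0.305 (adjusted p = 1). Over mice, 4 of 5 R33 mice lay below every vehicle mouse, with a difference of −0.50 and an exact permutation p of 0.0635. The exception was mouse AE, which was counted by its injected library alone. Complete downward separation of R33 from vehicle mice, which Grin2b did not have, was seen in 0.416% of tested genes. The share of genes with 4 of 5 mice below is not given here.

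The other subunits spread widely among R33 mice. Grin2a was 6.17 to 16.5 FPKM on the injected and 8.6 to 12 FPKM on the contralateral side, and its log2 fold change was −0.24 (SE 0.144, adjusted p = 0.85), which was −0.079 without vehicle mouse M and −0.334 without vehicle mouse J. Grin1 was 59.6 FPKM in the injected hemisphere of mouse AD and 90.3 to 96.3 FPKM in the injected hemisphere of the other 4 mice, and its log2 fold change was −0.13 (95% confidence interval −0.35 to 0.09). The intervals of Grin2c (−0.38 to 0.11), Grin2d (−0.27 to 0.09) and Grin3a (−0.49 to 0.23) also included 0. Of the 6 subunits, 1 had an unadjusted p under 0.05, beside 5.87% of all tested genes.

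R33 and R55 were then compared directly, at the same dose and time. None of the 6 subunits differed at the threshold (0% of all tested genes did), and all 6 adjusted p were 1. The largest differences were Grin2a at −0.13 (R55 minus R33, 95% confidence interval −0.41 to 0.15) and Grin2c at 0.11 (−0.125 to 0.35). Grin2b differed by −0.07, and its interval of −0.42 to 0.285 leaves room for a difference in either direction. Grin1, Grin2d and Grin3a gave 0.065, 0.04 and −0.01. No subunit had an unadjusted p under 0.05, beside 1.15% of tested genes. The SD of Grin2b within a hemisphere was 6.82 FPKM (injected) and 3.44 FPKM (contralateral) after R33, and 2.63 and 2.27 FPKM after R55. Mouse AD, at 8.14 FPKM over both hemispheres, was the lowest R33 mouse, and the other 4 lay at 17.5 to 22.8 FPKM. The spreads were not compared by a test.

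The make-up of the GluN2 transcripts described the same values as shares. Grin2b took 44.5% ± 1.79 (SD, n = 4 mice) of the summed GluN2 FPKM in vehicle mice, 38.6% ± 5.05 (n = 5) in R33 mice and 37.2% ± 2.54 (n = 5) in R55 mice. The vehicle mice ranged from 42.4 to 46.8%, and the R33 and R55 mice from 29.7 to 42% and from 32.9 to 39.7%. Single libraries overlapped within each hemisphere. Injected libraries held 41 to 45.3% (vehicle), 26.7 to 42.4% (R33) and 33 to 42.5% (R55). Contralateral ones held 39.5 to 50%, 32.7 to 41.1% and 32 to 40.3%. Grin2a took 26.5%, 28.5% and 26.2% in vehicle, R33 and R55 mice, and Grin2c took 21.1%, 23.8% and 27%. The ratio of Grin2b to Grin2a, which is known to decline as the forebrain matures, was 1.7 ± 0.198 in vehicle, 1.37 ± 0.191 in R33 and 1.42 ± 0.0778 in R55 mice. Relative to the obligatory subunit, Grin2b was 0.247 of Grin1 in vehicle, 0.189 in R33 and 0.162 in R55 mice. Since the same FPKM enter the tests above, the shares and ratios were not tested separately. The length trend of the libraries, described below, was not removed from them.

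**Figure D3:**
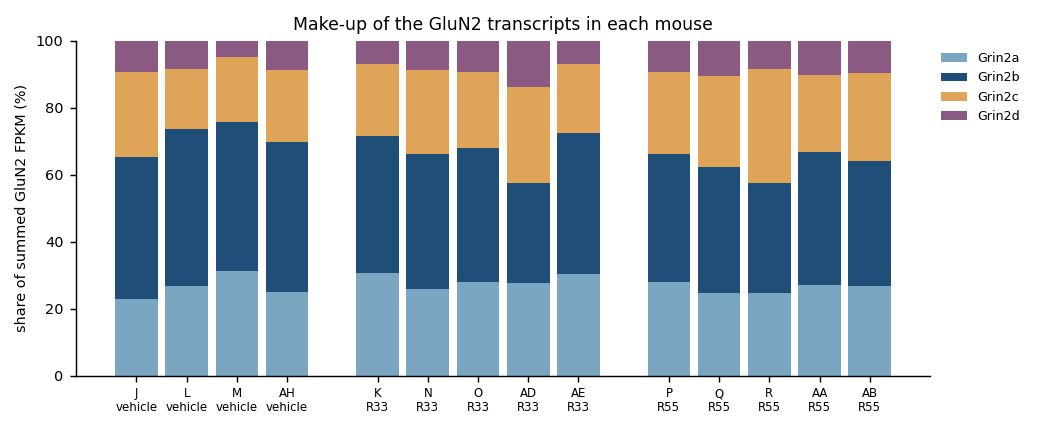
Share of the summed FPKM of Grin2a, Grin2b, Grin2c and Grin2d held by each transcript (vertical axis, percent) in each mouse, as the mean of its hemispheres, grouped by treatment. Grin2b takes 42.4 to 46.8% in the vehicle mice and 29.7 to 42% in mice given either compound, with the lowest share in R33 mouse AD.

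The study also compared the injected with the contralateral hemisphere. None of the 6 subunits passed the threshold (0% of all tested genes did), and none had an unadjusted p under 0.05, beside 3.47% of tested genes. The log2 fold changes, injected minus contralateral, ran from −0.08 for Grin3a to 0.11 for Grin2a. Among the 13 mice with both hemispheres, the injected side was higher in 7 for Grin1, Grin2a and Grin2c, and in 6 for Grin2b, Grin2d and Grin3a. Grin2b differed by as much as −0.79 and 0.78 on the log2 scale between the hemispheres of single mice (AD and AB), with an SD of 0.468 over the 13 mice.

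Each compound was therefore also compared with vehicle within each hemisphere. These values came from 1 fit of 6 group means, in which all 27 libraries shared the estimate of spread. In the injected hemisphere, 0 of 6 subunits passed for R55 or R33 against vehicle (0% of all tested genes did in either). None had an unadjusted p under 0.05, as 0.825% of tested genes had for R55 and 1.75% for R33. Grin2b gave −0.40 (SE 0.253) for R55 and −0.43 (SE 0.253) for R33. The R33 value rested on mouse AD, without whose injected library it was −0.098. In the contralateral hemisphere, 0 of 6 passed (0.0231% of all tested genes for R55 and 0% for R33). Only Grin2b had an unadjusted p under 0.05, beside 11.2% of tested genes for R55 and 2.62% for R33. It gave −0.84 (SE 0.253, unadjusted p = 0.00277, adjusted p = 0.356) for R55 and −0.68 (SE 0.267, unadjusted p = 0.0174, adjusted p = 1) for R33. Without mouse AD the adjusted p for R55 was 0.0098, and with the compared treatments alone it was 0.0363.

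For Grin2a the R55 values were −0.34 (SE 0.206) on the injected side and −0.41 (SE 0.206) on the other. An interaction of compound and hemisphere was passed by 0 of 6 subunits for either compound (0% of all tested genes). For Grin2b this term was 0.44 (SE 0.358, unadjusted p = 0.232, adjusted p = 0.999) for R55, injected minus contralateral, so the larger contralateral value was not shown to differ from the injected one.

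A property of the libraries that moved with Grin2b and Grin2a was the balance between long and short genes. For each library, the slope of log2 values on gene length, relative to the mean of all libraries, was taken over all tested genes. Its median was 0.059 per doubling of length in contralateral vehicle libraries and −0.051 in contralateral R55 libraries, and 0.028 and 0.023 in the injected hemisphere. The lowest slopes were −0.227 in the injected library of R33 mouse AD and −0.175 in the contralateral library of R55 mouse Q. Across the 27 libraries, which differ in depth and come in pairs from 13 mice, Pearson's r with the slope was 0.82 for Grin2b, 0.75 for Grin2a and 0.62 for Grin1, and 0.05 to 0.25 for Grin2d, Grin3a and Grin2c.

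**Figure D4:**
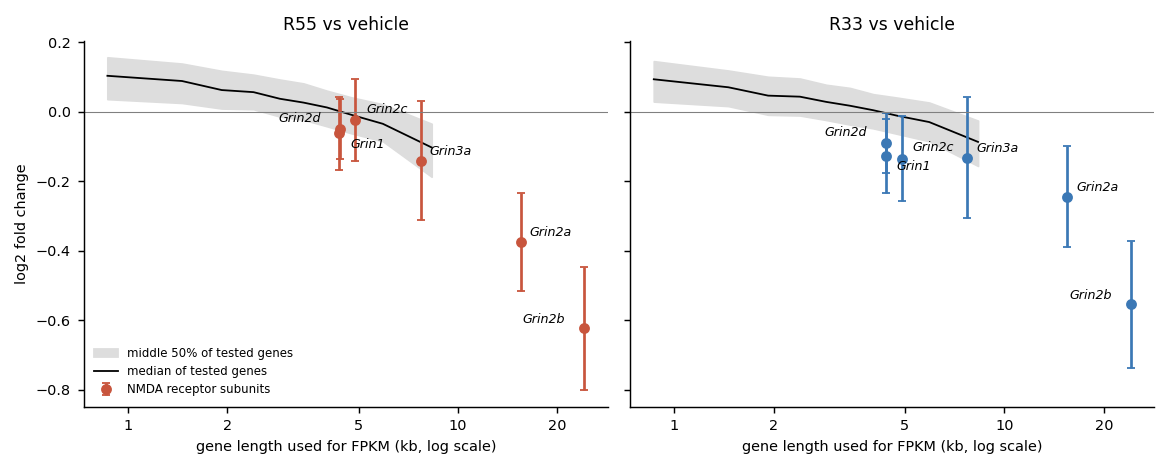
Log2 fold change (vertical axis) against gene length in kb (horizontal, log scale) for R55 and R33 against vehicle. The black line joins the medians of tested genes in 10 length classes, drawn at the median length of each class, the grey band holds their middle 50%, and coloured points are the 6 subunits with their SE. Medians slope downward to −0.103 (R55) and −0.087 (R33) in the longest class, and Grin2a and Grin2b lie below them at lengths past that class's median.

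Long genes as a group had lower values in R55 than in vehicle libraries. The median log2 fold change was 0.103 in the shortest of 10 length classes and −0.103 in the longest, which runs from 6840 to 31327 bp and holds Grin3a, Grin2a and Grin2b. Of the 51 tested genes of at least 15000 bp, a length chosen after the values were seen, 48 had log2 fold changes below 0 for R55, with a median of −0.27 (−0.21 for R33). Grin2b had the lowest value of these 51 genes for R55 and for R33, and 12 of them lay below Grin2a for R55. After a lowess trend on length was removed from every library, the log2 fold change for R55 was −0.27 for Grin2b (SE 0.107, unadjusted p = 0.0184, adjusted p = 0.721) and −0.115 for Grin2a (unadjusted p = 0.266). For R33 it was −0.29 for Grin2b (unadjusted p = 0.0129, adjusted p = 0.945) and −0.05 for Grin2a. How much of the difference in the deposited values belongs to the length trend and how much to the genes cannot be told apart.

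The summed level of 6 interneuron markers, all of them detected, was inversely related to several members. It ranged from 435 to 580 FPKM in vehicle, 471 to 737 in R33 and 388 to 693 in R55 libraries. Over the 27 libraries its r was −0.61 with Grin2c, −0.59 with Grin2b, −0.57 with Grin2a, −0.25 with Grin1, 0.16 with Grin2d and 0.11 with Grin3a. For 6 general neuron markers r ran from −0.50 (Grin3a) to 0.24 (Grin1), with −0.40 for Grin2b. For 6 astrocyte markers it ran from −0.50 (Grin1) to 0.30 (Grin2c). For 6 thalamic and cerebellar markers it ran from −0.41 (Grin1) to 0.49 (Grin3a), with 0.02 for Grin2b. Of 5 red blood cell transcripts, the 4 globins were listed at 0 in all 27 libraries, and Alas2, at 1 to 8.17 FPKM, had an r of −0.54 with Grin2b. The summed level of 7 excitatory cortical markers ranged from 564 to 904, 427 to 734 and 616 to 721 FPKM and had an r of 0.06 with Grin2b and 0.04 with Grin2a. The length trend of the libraries was not removed from these sums and r values. The part of cell composition in the values of the members was not tested.

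Among themselves, the subunits fell into pairs that varied together. Over the 27 libraries Grin2a and Grin2b had an r of 0.88, which was 0.66 after removal of the length trend, and Grin2d and Grin3a had an r of 0.80 before and after. Over the means of the 14 mice these values were 0.89 and 0.84. Grin1 followed Grin2a (r = 0.68) and Grin2b (r = 0.56), while Grin2c varied apart from the rest, with r from 0.01 to 0.35. In the injected library of R33 mouse O, Grin2d had its highest value (5.18 FPKM) and Grin3a its second highest (8.34 FPKM), after the contralateral library of vehicle mouse J (8.39 FPKM).

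**Figure D5:**
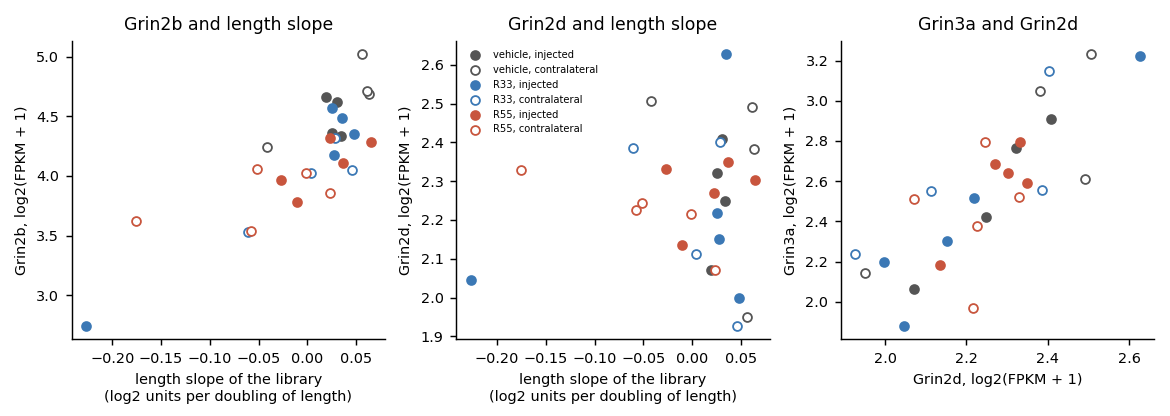
Left and middle, log2(FPKM + 1) of Grin2b and of Grin2d (vertical) against the length slope of the library (horizontal, log2 units per doubling of gene length), and right, Grin3a against Grin2d, with 1 point per library coloured by treatment (open, contralateral). Grin2b follows the slope (r = 0.82), Grin2d does not (r = 0.05), and Grin3a follows Grin2d (r = 0.80).

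The genes most like each member over the 27 libraries differed accordingly. Closest to Grin2b were Srcap (r = 0.940), a chromatin remodeller, the semaphorin receptor Plxna4 (0.935) and the sodium-calcium exchanger Slc8a1 (0.931), with lengths of 10904 to 18713 bp. Close to Grin2a were the calcium pump Atp2b1 (0.929) and Plxna4 (0.926). After removal of the length trend the nearest genes included Galnt16 (r = 0.885) and Nell2 (0.849) for Grin2b, and were Hpca, Camk2b and Atp2b1 for Grin2a (0.840 to 0.902). Of the genes named for these 2 subunits, only Atp2b1 stood in both versions. Grin1 was closest to Tecpr1 (0.878), the adenylyl cyclase Adcy2 (0.863) and Rab11fip3 (0.852), and both of the latter stayed among its 3 nearest genes after removal of the length trend.

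Grin2c was closest to the protease Htra1 (0.862), the growth factor receptor Fgfr3 (0.860) and the glypican Gpc5 (0.854), and its r with the summed level of 6 astrocyte markers was 0.30. Grin2d was closest to Wdr6 (0.814), Fam20c (0.794) and the metalloproteinase inhibitor Timp2 (0.786). Grin3a was closest to Wdr6 (0.896), Cntnap4 (0.884) and Timp2 (0.877), and thus shared 2 of its 3 nearest genes with Grin2d.

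The other ionotropic glutamate receptors were described in the same way, and no test compared the families. For R55 against vehicle, 0 of 4 AMPA receptor subunits passed the threshold, with a median log2 fold change of −0.17 and all 4 below 0. Gria1 had the largest value at −0.46 (SE 0.240, adjusted p = 0.589), at 62.3 FPKM ± 14.1 (SD, n = 5 mice) in R55 and 90.6 ± 41.9 (n = 4) in vehicle mice. Of 5 kainate receptor subunits, 0 passed and all 5 were below 0 (median −0.13), with Grik2 at −0.23 (unadjusted p = 0.0155). Over all tested genes 39.8% were below 0 and 8.45% had an unadjusted p under 0.05. After removal of the length trend the median was −0.049 for the AMPA and −0.028 for the kainate subunits. Gria1 was then at −0.40 and Grik2 at −0.054.

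The partners of the receptor were described by function. None of the tested genes in these 5 lists passed the threshold for R55. In the list of anchoring and transport proteins, 0 of 12 had an unadjusted p under 0.05 and the median was −0.04. Dlg4, which encodes the scaffold PSD-95, was at 299 FPKM ± 22.9 in R55 and 309 ± 16.1 in vehicle mice (log2 fold change −0.05), Neto1, an auxiliary receptor subunit, was at −0.23 (unadjusted p = 0.058), and the PDZ protein Lin7b was at 0.19 (unadjusted p = 0.0725).

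Among 16 kinases and phosphatases, 2 had an unadjusted p under 0.05, both with lower values (8.45% of all tested genes in either direction), and the median was −0.03. Prkca, a protein kinase C, was at −0.27 (SE 0.153, unadjusted p = 0.0908, adjusted p = 0.607). Of 12 calcium signalling partners, 1 had an unadjusted p under 0.05, a share close to that over all genes. This was Nos1, the neuronal nitric oxide synthase that PSD-95 holds near the receptor, at 4.06 FPKM ± 0.748 in R55 and 6.79 ± 2.12 in vehicle mice (log2 fold change −0.58, SE 0.203, adjusted p = 0.545). Camk2a, the calcium-dependent kinase that binds GluN2B, was at −0.05, and the Ras exchange factor Rasgrf2 was at 0.22.

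Of 8 tested genes for the supply of the co-agonists glycine and D-serine, 3 had an unadjusted p under 0.05, all with higher values (4.71% of all tested genes were so in this direction), and the median was 0.17. Phgdh and Psph, which encode the first and last enzymes of serine synthesis, were at 0.28 (SE 0.130, adjusted p = 0.584) and 0.24 (SE 0.094, adjusted p = 0.552). Srr, which encodes the racemase that makes D-serine, was at −0.10 (unadjusted p = 0.0914). In the list of glutamate release and uptake, 0 of 7 had an unadjusted p under 0.05. The vesicular transporter Slc17a6 was at 0.36 (SE 0.259) and the glial uptake transporter Slc1a2 at −0.18 (SE 0.257).

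For R33, set against the same vehicle mice, none of these partners passed the threshold. Nos1 was at −0.37, Phgdh at 0.23, Psph at 0.19, Neto1 at −0.18, Dlg4 at −0.03, Camk2a at −0.075 and Srr at −0.12.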

How the data were processed

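Stranded mRNA libraries of cortex blocks were read in pairs by the study's authors, and HISAT2 placed the reads on GRCm39. Values deposited by the authors are FPKM, in 1 table of 32 libraries. The counting tool and its annotation are not given in the sources used here. Groups came from the sample labels, and 5 libraries without a listed sample were not used. Each library's leftover header line was dropped (32 in all).

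When nonzero FPKM were divided by the worth of 1 fragment, 100.0% came out whole (tolerance 0.01), so fragments and the gene lengths used by the authors were recovered. FPKM depend on those lengths, so any bias along the transcript weighs on long genes. The 12976 genes whose mean reached 1 FPKM were fitted as log2(FPKM + 1) with limma 3.58.1 in R 4.3.3, with intensity-trended moderation and p-values adjusted over all of them by Benjamini-Hochberg. Fold changes are on that scale, which understates changes of low genes. The additive fit had treatment and hemisphere as factors, and a fit of 6 group means gave values per hemisphere and interactions. Libraries of a mouse entered as separate samples in both. Exact two-sided permutation tests counted each mouse once, as the mean of its hemispheres. The fit was tested on simulated data.

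Hemispheres of the same mouse are paired samples. Deviations from group means correlated by 0.394 on average over 13 mice (−0.079 to 0.648, above 0.1 in 11), so the mouse was also used as a replicate block. For treatment contrasts the block was a modelled within-mouse correlation (0.347).

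Other alternatives were median-of-ratios scaling, 2 other filters, a pseudocount of 0.1, 1 value per mouse, only the compared treatments, the letters of the mouse label as a covariate, removal of a lowess length trend (span 0.3), limma voom, moderation without the trend, and each mouse omitted in turn. Omission of the injected library of R33 mouse AD or the contralateral one of vehicle mouse J was chosen after seeing the data.

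The members, gene lists and tests were chosen with earlier results of these data known. Genes named besides the members were, per list, the 2 with the largest absolute log2 fold change for R55 against vehicle, with Dlg4, Camk2a and Srr, and the 3 genes that correlated best with each member. Gria1, Grik2 and Grin3b are outside that rule and were chosen after their values were seen. Some single genes that the rule names are not reported here. Gene positions are from GENCODE M39. Python 3.11.15, scipy 1.17.1 and matplotlib 3.10.9 were used for the rest.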

Additional observations from a re-analysis of the deposited data

Results flagged for a closer look

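Among 48 sets of 4 or 5 libraries (each subunit, and the ratios of Grin2b to Grin2a and of summed GluN2 transcripts to Grin1, in each treatment and hemisphere), 2 held a sample far from the others by Dixon's ratio of gap to range. Chance gives about 1 in 20. Grin1 in the injected hemisphere of R33 mouse AD was 59.6 FPKM, while the other 4 mice lay at 90.3 to 96.3 FPKM. Grin2c in the injected hemisphere of R55 mouse R was 12.3 FPKM, while the other 4 mice lay at 9.44 to 10.2 FPKM.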

How the results depend on the processing

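The count of subunits called, 0 in the main fit of all 10 comparisons, became 1 (Grin2b) for R55 against vehicle over both hemispheres and in the contralateral hemisphere when only the compared treatments were fitted (adjusted p 0.0469 and 0.0363) or the injected library of R33 mouse AD was left out (0.0293 and 0.0297). Omitting single mice, these counts ranged from 0 to 1, and only mouse AD gave 1. Other settings moved no count. The mouse as a replicate block was not combined with another setting. It changed no call, and left Grin2b (R55 against vehicle) at −0.62 with an adjusted p of 0.9.

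Signs turned only for small log2 fold changes that passed no test. For R55 against vehicle, Grin2c was 0.000 with the label letters as a covariate, 0.010 without the length trend and 0.022 without the contralateral library of vehicle mouse J. For R55 against R33, removal of the length trend gave 0.024 for Grin2b and 0.013 for Grin3a, voom gave 0.001 for Grin3a, and omission of the injected AD library gave −0.002 for Grin1. For injected against contralateral, Grin2d was −0.001 with the label letters, −0.005 without the length trend and −0.010 in voom, Grin1 was −0.035 without the contralateral J library and Grin2c 0.006 without the injected AD library. Grin2a was −0.167 for the interaction of R55 with hemisphere without the length trend, and 0.051 for R33 on the injected side without the AD library.

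When single mice were omitted, R55 against vehicle ranged from −0.222 to 0.009 for Grin1, −0.137 to 0.034 for Grin2c and −0.146 to 0.003 for Grin2d. R33 against vehicle ranged from −0.314 to 0.008 for Grin3a and, on the injected side, −0.271 to 0.051 for Grin2a. R55 against R33 ranged from −0.031 to 0.084 for Grin2d and −0.095 to 0.097 for Grin3a. Injected against contralateral ranged from −0.007 to 0.074 for Grin1 and −0.036 to 0.030 for Grin2d, and the interaction for Grin2a from −0.021 to 0.243. The causes of these turns were not tested. With 4 or 5 mice a group, intervals as wide as those given above limit what can be seen.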
